A study of Homo sapiens with 4 samples.

Results

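PAS-seq reads the 3′ ends of polyadenylated RNA, so each tag marks where a transcript was cleaved before its poly(A) tail was added. It was used here to follow the genes of 5 Eph receptors (EPHB4, EPHB2, EPHB3, EPHA2 and EPHA4) and 4 ephrins (EFNA1, EFNA5, EFNB1 and EFNB2) in the established human ESCC lines KYSE30 and TE-1. A poly(A) site cluster (PAC) was given to a gene when its dominant site, the position with most tags, lay in the span of that gene on the same strand in GENCODE 44. By this rule 8 of the 9 genes were found, with 11 of the 17627 PACs of the series. EFNB2, the main ligand of EPHB4, had no PAC in any of the 4 tables, either in its span or within 5000 nt past its end, so its level was not analysed here. Each line has 1 library from cells kept for 24 h with 20 mM l-lactate and another from control cells, which the labels call PBS. The cell line labels of the 2 control samples name KYSE32 and TE-3, whereas their titles and the methods give KYSE30 and TE-1, and the titles were used. Both lines are cultured tumour cells with no stroma or vessel, and with 1 library per condition no spread between cultures can be given within a line.

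Eph receptors are receptor tyrosine kinases that are activated by ephrins on the surface of a neighbouring cell, and the ephrin-bearing cell receives a signal in return. EphA receptors mainly bind the lipid-anchored ephrin-A ligands and EphB receptors the transmembrane ephrin-B ligands, while EPHA4 binds both classes. In epithelia these contacts control cell sorting, adhesion and repulsion, and EPHB4 with ephrin-B2 is best known for separating arteries from veins.

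The 3′ ends that the tags marked are given first, since the use of these ends is the main measurement. All dominant sites lay in the 3′ UTR of the last exon, except that of EPHB4 in the controls, 1 nt past its end. The PAC of EPHB4 covered 373 nt at chr7:100802563-100802935 on the minus strand of GRCh38, in exon 17, and its dominant site was not the same in all libraries. The sequences below, from the GRCh38 reference, run 5′ to 3′ along the RNA with T for U. Each ends at a dominant site, except the distal one of EPHB4, which ends 8 nt before its site so that the poly(A) signal is in view. Capitals mark the poly(A) signal or signal variant found, which for AAUAAA is the hexamer that the cleavage machinery binds.
EPHB4 middle, dominant in KYSE30 with l-lactate, chr7:100802580-100802609: tttgtataAATAAAagaaaatgggacgtgt
EPHB4 distal, dominant in both controls, chr7:100802572-100802601: AATAAAagaaaatgggacgtgtcccagctc
EPHB2 proximal, chr1:22914644-22914673, plus strand: cttaggcAATACAccaagggcgagatttta
EPHB2 middle, chr1:22915293-22915322: tgaattgaatggaAATAAAcgctttagtta
EPHB2 distal, chr1:22921471-22921500: tcccaaAATAAAtgtgaattgtaaaaatta
EPHA4 proximal, chr2:221420017-221420046, minus strand: gtgatataAATATAtttttttcttagacta
EPHA4 distal, chr2:221418040-221418069: gcatttgaaaatAATAAAgtagttgccgta
These genes had a choice of 3′ ends. In EPHB2 and EPHA4 the most distal end carried AAUAAA and the most proximal end a variant, AAUACA or AAUAUA.

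The middle and distal ends of EPHB4 lay 16 nt apart and shared the same AAUAAA, whose last base was 16 nt before the middle site and 32 nt before the distal one. The signals searched for in the 50 nt before dominant sites were AAUAAA and AUUAAA with 10 variants of them, 12 hexamers in all, sought on the transcribed strand only. The variants changed the start of AAUAAA (to AGUAAA or to UAUAAA or to CAUAAA or to GAUAAA or to ACUAAA) or a later letter (to AAUAUA or to AAUACA or to AAUAGA or to AAGAAA or to AAUGAA), and hexamers can overlap each other. Over all 17621 PACs that could be read, 83.1% had AAUAAA or AUUAAA and 95.2% any of the 12, against 8 and 11 of the 11 member PACs, each taken at 1 dominant site, which for EPHB4 was that of the controls. UGUA, the motif bound by the CFIm subunit NUDT21, was present in the 100 nt before the dominant site in 7 of 11 member PACs and in 57.0% of all PACs. In EPHB4 the same window held 1 UGUA, 24 nt before the middle site and 40 nt before the distal. A match of letters is a description and not a measured binding site.

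The single-end genes were cut close to their annotated ends. EPHA2 ended at chr1:16124343 in all libraries and held 58.4% to 63.8% of its tags at that base. EFNA1 was cut more sharply, with 88.3% to 91.4% of its tags at chr1:155134857. EFNA5 ended at chr5:107376895 in all libraries, 4360 nt after its stop codon, and EPHB3 at chr3:184582408 in KYSE30, with all of its 37 and 36 tags at that base. EFNB1 ended at chrX:68842093 or 7 nt downstream, but on 9 to 18 tags only. By contrast, no base of the EPHB4 PAC held more than 22.3% of its tags in any library.

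Levels are in TPM, the tags of a gene scaled to 1000000 tags of the library. Only TPM are given, so depths and tag counts were inferred from the step between the TPM values of each library. By this the libraries held between 7174991 and 10393799 tags, and 92.5% to 93.1% of them were in the listed PACs. Each transcript gives 1 end, so TPM can be set side by side between genes with no correction for length. Intervals on levels, ratios and shares are at 95% and cover counting error only. A PAC of 1 nt was listed from 3.07 to 3.10 TPM upwards, so such a PAC that is not listed was below about that level. A list of 10 markers held squamous genes and, in EPCAM and CDH1, genes of epithelia more widely. Of the 10, 5 had a PAC (KRT5, KRT14, TP63, DSG3 and SFN had none). The summed TPM of those 5 was 1120 and 956 in KYSE30 and 224 and 275 in TE-1 with l-lactate and in the control. SOX2 and KRT6A were listed only in KYSE30 and KRT17 only in TE-1, and EPCAM had 563 to 635 TPM in KYSE30 and 30.7 to 36.4 TPM in TE-1. Endothelial markers, of interest for EPHB4, had 1 of 5 listed, CDH5, at 11.2 and 16.2 TPM in KYSE30 and unlisted in TE-1. Fibroblast markers had 2 of 5 listed, with sums of 8.50 and 12.5 TPM in TE-1 and none in KYSE30, and leukocyte markers 1 of 5, CD68, at 3.48 to 15.2 TPM. The part of these genes in the values below was not tested.

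EPHB4 was the most abundant of these genes in KYSE30 and the second in TE-1. Its level was 94.4 TPM with l-lactate and 98.3 TPM in the control of KYSE30, and 69.4 and 61.1 TPM in those of TE-1. Both KYSE30 libraries were above both TE-1 libraries, and between 75.6% and 84.9% of the genes tested lay below EPHB4 in each library. In bulk samples, fewer cells expressing a gene and less RNA per cell cannot be told apart. The other EphB receptor with a sizeable level, EPHB2, which sorts epithelial cells along ephrin-B gradients in the gut, had 63.7 and 61.7 TPM in KYSE30 and 19.4 and 19.1 TPM in TE-1. The groups by line were far apart and the libraries within a line were nearly level. EPHB3, often expressed with EPHB2, had 5.16 and 4.85 TPM in KYSE30 from a PAC of 1 nt and was not listed in TE-1, where it was thus below about 3.07 TPM.

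EPHA2, an epithelial receptor that is frequently raised in carcinomas, had 60.3 TPM with l-lactate and 50.4 TPM in the control of KYSE30, and 34.4 and 27.9 TPM in TE-1. It was higher in KYSE30 than in TE-1, and higher with l-lactate than in the control of the same line. EPHA4 had 5.71 and 11.4 TPM in KYSE30 and was not listed in TE-1. Among the ligands, EFNA1, the main ephrin partner of EPHA2, went the other way between the lines, with 68.4 and 75.4 TPM in KYSE30 and 187 and 205 TPM in TE-1. EFNA5 followed the receptors, with 28.6 and 26.5 TPM in KYSE30 and 14.5 and 11.7 TPM in TE-1. EFNB1, the only ephrin-B of the list with a PAC, was near the listing limit in every library, at 1.95, 1.62, 1.06 and 1.73 TPM in the same order.

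The order of levels thus differed between the lines. In the KYSE30 control it was EPHB4, EFNA1, EPHB2, EPHA2, EFNA5, EPHA4, EPHB3 and EFNB1, and no counting intervals of neighbours overlapped. With l-lactate the order was the same, but the intervals of EFNA1 and EPHB2, of EPHB2 and EPHA2, and of EPHA4 and EPHB3 overlapped. In both TE-1 libraries it was EFNA1, EPHB4, EPHA2, EPHB2, EFNA5 and EFNB1, and only those of EPHB2 and EFNA5 with l-lactate overlapped. Summed over the list, receptors gave 229 and 227 TPM in KYSE30 and 123 and 108 TPM in TE-1, whereas ephrins gave 99.0 and 104 TPM and then 202 and 218 TPM. The receptor sum was 2.31 and 2.18 times the ephrin sum in KYSE30 and 0.609 and 0.495 times in TE-1. Most of the ephrin sum was EFNA1, with 68.4 and 75.4 TPM in KYSE30 and 187 and 205 TPM in TE-1. EFNA3 and EFNA4, given below, are outside the list and not in these sums. EFNA1 was 1.13 and 1.5 times EPHA2 in KYSE30 and 5.43 and 7.35 times in TE-1.

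To ask how the lines differ, the 4 libraries were fitted with limma on log2(TPM + 1) with terms for line and treatment, so that the 2 libraries of a line stand as its replicates. The p-values measure only the spread between these libraries, which differ in treatment and were not shown to be separate cultures. EPHB2 was higher in KYSE30 by 1.65 on the log2 scale (SE 0.10, adjusted p = 0.0001), with KYSE30 to TE-1 ratios of 3.22 (2.72 to 3.82) in the controls and 3.29 (2.75 to 3.96) with l-lactate. EPHA2 was higher by 0.81 (SE 0.09, adjusted p = 0.000841) and EFNA5 by 1.02 (SE 0.13, adjusted p = 0.00125). EPHB4 was higher by 0.56 (SE 0.09, adjusted p = 0.00332), with ratios of 1.61 (1.44 to 1.79) and 1.36 (1.22 to 1.52). EFNA1 was lower in KYSE30, at -1.43 (SE 0.07, adjusted p = 5.4e-05), and its KYSE30 to TE-1 ratio was 0.368 (0.335 to 0.404) in the controls and 0.367 (0.331 to 0.406) with l-lactate. EFNB1 did not pass the test (0.23, SE 0.28, adjusted p = 0.492).

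EPHB3 and EPHA4 had no listed PAC in TE-1 and met the filter on low values only through KYSE30, so they had to differ, and neither a fold nor a test is given for them. Of the 6 genes listed in both lines, 4 were called higher and 1 lower in KYSE30. Differences between the lines were common, since 71.1% of the 11215 genes tested were called, so a called difference does not set these genes apart. A call with at least 2-fold was less frequent, at 20.9% of genes higher in KYSE30 and 17.8% higher in TE-1. EPHB2 and EFNA5 were in the first class and EFNA1 in the second, while EPHB3 and EPHA4 were not placed. These shares of all genes take in those listed in 1 line only. Over the 9568 tested genes listed in both lines, 29.1% were called with at least 2-fold, against 3 of the 6 members. EFNA5, at 1.02, lay just inside the 2-fold limit and was at 0.85 with a pseudocount of 5, while EPHA2, at 0.81, lay just outside. The median log2 difference was 0.68 over the 6 genes listed in both lines, against 0.01 over the 9568 tested genes of that kind, of which 67.2% were called. The sum of the list with squamous markers, mostly EPCAM and CDH1 in KYSE30, was also higher in that line, while CD68 was higher in TE-1. That sum does not tell which line is more squamous, since EPCAM and CDH1 are not particular to squamous cells. CDH5 was listed only in KYSE30, and KRT17 and the fibroblast markers only in TE-1, so these too had to differ.

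The response of gene levels to l-lactate was asked with the same fit, in which the 2 lines stand as replicates of the treatment. The study itself compared the use of poly(A) sites, which this fit of summed levels does not test. None of the 8 genes passed, and 0% of the 11215 genes did, while limma gave an unadjusted p under 0.05 for 825. EPHB3 and EPHA4 were unlisted in both TE-1 libraries, so their TE-1 difference was fixed at 0. Only the other 6 genes were thus compared in both lines. Of the 8 genes, EPHA2 was the only one among these 825. Its level was higher with l-lactate in 2 of 2 lines, by 0.27 on the log2 scale (SE 0.09, adjusted p = 0.642). Its ratio of l-lactate to control was 1.20 (1.04 to 1.38) in KYSE30 and 1.23 (1.04 to 1.45) in TE-1. For EFNA1 the ratios were 0.907 (0.802 to 1.03) and 0.911 (0.853 to 0.972), with a log2 difference of -0.14 (adjusted p = 0.645).

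The l-lactate to control ratio of EPHB4 was 0.960 (0.863 to 1.07) in KYSE30 and 1.14 (1.01 to 1.27) in TE-1. It pointed in opposite directions in the lines, and the log2 difference was 0.06 (adjusted p = 0.895). EPHB2 had ratios of 1.03 (0.905 to 1.18) and 1.01 (0.817 to 1.25), so that its total level with l-lactate was within counting error of the control in both lines. EFNA5 had 1.08 (0.881 to 1.32) and 1.24 (0.955 to 1.60), EPHB3 1.06 (0.654 to 1.73) in KYSE30, and EFNB1 1.21 (0.518 to 2.86) and 0.614 (0.243 to 1.44), which at 9 to 18 tags bounds little. Within a line, 6.56% of genes in KYSE30 and 6.50% in TE-1 differed by at least 1.5-fold on the log2(TPM + 1) scale, and of the members only EPHA4 in KYSE30 did, with no replicate check. Its ratio was 0.499 (0.335 to 0.733), from 85 tags in the control and 41 with l-lactate. Of the 85 tags, 28 came from a proximal PAC of 1 nt at 3.77 TPM, close above the listing limit, which was not listed with l-lactate. On the distal PAC alone, with 57 and 41 tags, the ratio was 0.744 (0.486 to 1.13).

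**Figure D1:**
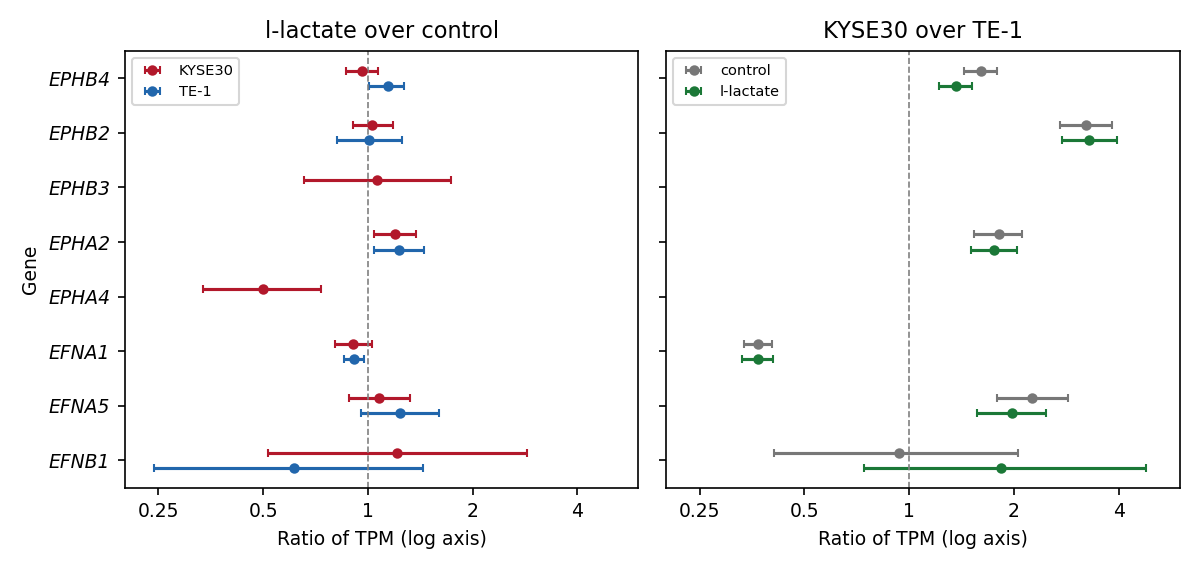
Ratios of TPM on a log axis with 95% counting intervals, l-lactate over control in each line (left) and KYSE30 over TE-1 in each treatment (right), with a dashed line at 1. On the left most intervals cross 1 and EPHA2 lies at 1.20 and 1.23, while on the right EPHB2 lies above 3 and EFNA1 at 0.368 and 0.367. Genes not listed in a library have no point.

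The dominant site of EPHB4 moved upstream with l-lactate in both lines. In KYSE30 it was chr7:100802564 in the control, 897 nt after the stop codon, with 163 of 730 tags (22.3%, 19.5 to 25.5), and chr7:100802580 with l-lactate, 881 nt after it, with 129 of 677 tags (19.1%, 16.3 to 22.2). In TE-1 it was also chr7:100802564 in the control, with 115 of 635 tags (18.1%, 15.3 to 21.3), but with l-lactate it was a proximal site only 539 nt after the stop codon, with 112 of 588 tags (19%, 16.1 to 22.4). The move was thus 16 nt in KYSE30 and 358 nt in TE-1. The control site lies 1 nt past the annotated end of the gene, so read strictly the rule takes the PAC from the l-lactate libraries only, and the PAC was kept whole here.

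A move of more than 24 nt, the distance within which the methods join sites, was seen in 1.43% of 10849 PACs in KYSE30 and 1.24% of 10769 in TE-1. Of the member PACs only that of EPHB4 in TE-1 moved that far. Of the sites in a PAC, only the dominant one has a level given. The share of a site in a library where it is not dominant is thus known only to be no higher than the dominant share. In KYSE30 the share of the distal site was at least 3.27 percentage points lower with l-lactate, with overlapping counting intervals. In TE-1 the proximal site was at least 0.937 points higher, again with overlapping intervals. Both values are minima, and how far use changed cannot be read from these tables.

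The quantile positions lay at the edges of the EPHB4 PAC in all libraries. The q10 position was chr7:100802564 in all 4 libraries, and q90 lay between 527 and 539 nt after the stop codon. At least 10% of tags therefore lay at the distal end of the PAC in every library and at least 10% at or upstream of the proximal site, but a change between the ends that leaves 10% at each edge would not move these positions. The width between these quantiles was 359 to 371 nt, and 3.23% of the 12344 PACs listed in all libraries were at least 359 nt wide in each of them, against a median width of 6 nt. By the methods, neighbouring PACs up to 500 nt apart were merged when they passed 5 TPM in every sample, so the proximal end and the distal pair are held in 1 PAC and no share of each can be given.

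**Figure D2:**
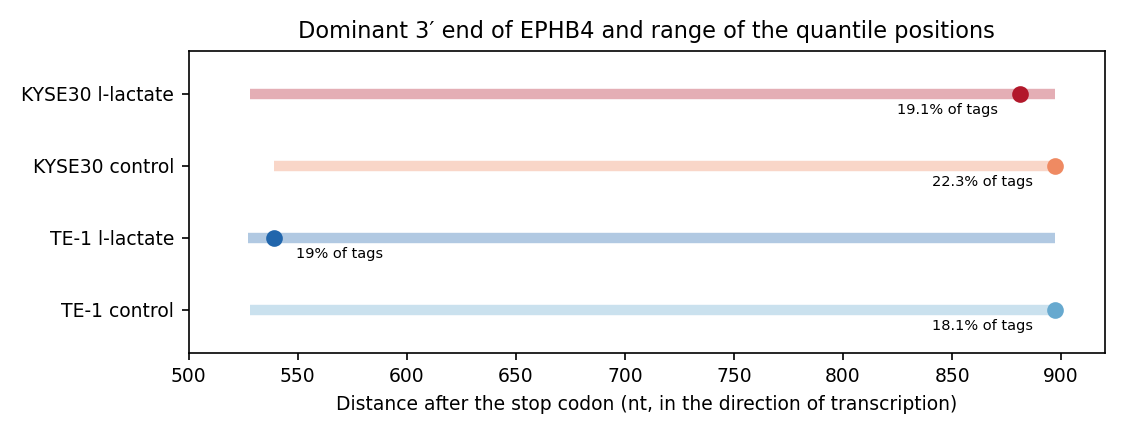
Distance after the stop codon (nt) of the dominant 3′ end of EPHB4 in each library (point, with its share of the tags of the PAC) and of the range between the q10 and q90 positions (bar). The controls have their dominant end at 897 nt, KYSE30 with l-lactate at 881 nt and TE-1 with l-lactate at 539 nt, while the bars span nearly the whole PAC in each library.

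EPHB2 had 3 PACs, and its most proximal one took most tags in every library. Their dominant sites, 1103, 1752 and 7930 nt after the stop codon, were the same bases in all libraries that listed them. The proximal share was 77.0% (73.0 to 80.6) with l-lactate and 72.5% in the control of KYSE30, and 79.3% and 72.9% in TE-1. The middle share was 13.6% and 19.4% in KYSE30 and 20.7% and 27.1% in TE-1. In both lines the middle end was used less and the proximal end more with l-lactate, but only the middle change in KYSE30 had an interval that left out 0. In TE-1 the distal PAC was not listed, so the proximal change is the middle change with its sign reversed and adds nothing to it. The middle share changed by -5.87 points (-10.7 to -1.05) in KYSE30 and by -6.40 (-15.0 to 2.50) in TE-1, and the proximal share by 4.53 (-1.10 to 10.1) and 6.40 (-2.50 to 15.0). These intervals compare single libraries.

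Changes of at least 10 points were seen in 9.44% of 4609 PACs in KYSE30 and 11.1% of 4703 in TE-1, and in none of the EPHB2 PACs. This count took genes with at least 2 PACs above 5 TPM, which of the members only EPHB2 had. In EPHA4 the proximal share was 32.9% (23.9 to 43.5) in the KYSE30 control, and with the unlisted PAC taken as 0 it changed by -32.9 points (-43.5 to -20.5) with l-lactate. At the listing limit for a PAC of 1 nt it would have been 34.9%, so no change in use can be read from it. The tags of the middle EPHB2 PAC were 62 with l-lactate and 89 in the control of KYSE30, a ratio of 0.721 (0.513 to 1.01), and 34 and 54 in TE-1, a ratio of 0.773 (0.488 to 1.21). The distal EPHB2 PAC, at the annotated end of the gene, was listed only in KYSE30, at 5.99 TPM with l-lactate and 4.98 TPM in the control, or 9.41% and 8.08% of EPHB2 tags. Its share was 1.33 points higher with l-lactate (-2.37 to 5.05). At those shares the distal PAC in TE-1 would have had 2.01 and 1.68 TPM, under the 3.07 and 3.08 TPM from which PACs of 1 nt were listed, so a difference between the lines in this end was not detectable. The mean distance of EPHB2 ends from the stop codon, 1830 and 1780 nt in KYSE30 and 1240 and 1280 nt in TE-1, rests on that PAC.

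**Figure D3:**
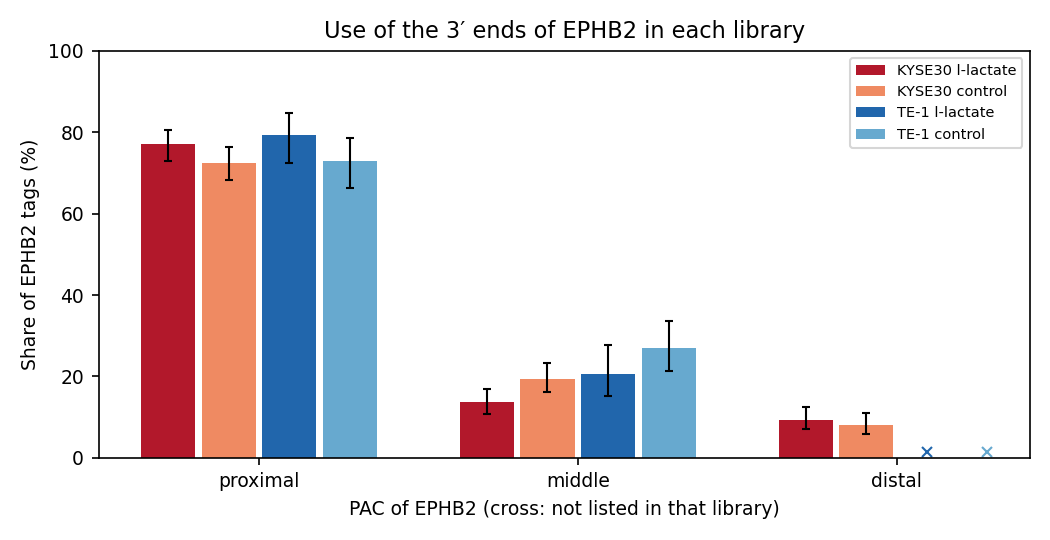
Share of EPHB2 tags (%) in its proximal, middle and distal PAC in each library, with 95% Wilson intervals as error bars. The middle share is 13.6% against 19.4% in KYSE30 and 20.7% against 27.1% in TE-1, lower with l-lactate in both, and crosses mark the distal PAC, which was not listed in TE-1.

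Of the 13 other Eph and ephrin genes, only EFNA3 and EFNA4 had a PAC, both lipid-anchored ligands from the neighbourhood of EFNA1 on chromosome 1. EFNA3 had 8.36 and 10.1 TPM in KYSE30 and 21.6 and 17 TPM in TE-1 and was lower in KYSE30, like EFNA1 (log2 difference -0.99, SE 0.19, adjusted p = 0.00598). EFNA4 did not pass, with 23.6, 24.1, 21.6 and 23.9 TPM (0.07, SE 0.12, adjusted p = 0.637). Neither passed the l-lactate test.

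A list of 37 genes that act with or below Eph receptors (adaptors, kinases, exchange factors, phosphatases and the proteases that cut ephrins) had 32 genes tested. Listed in both lines were 30 of them. Of these, 16 were called higher and 10 lower in KYSE30, with a median log2 difference of 0.46, and 14 were called with at least 2-fold. Over the 9568 tested genes listed in both lines, 67.2% were called, 29.1% with at least 2-fold. None of the 32 passed the l-lactate test, and 3 had an unadjusted limma p under 0.05. The 4 with the smallest adjusted p were smallest in the line comparison, and 2 of them, TIAM1 and GRB10, met the filter through a single line and so had to differ. TIAM1, an exchange factor for RAC1, had 44.6 and 41.3 TPM in KYSE30 and was not listed in TE-1, whereas GRB10, an adaptor that binds receptor kinases, had 44.3 and 36.8 TPM in TE-1 and was not listed in KYSE30. INPPL1, the inositol phosphatase SHIP2 that binds EPHA2, had 5.99 and 7.41 TPM in KYSE30 and 74.6 and 70.1 TPM in TE-1 (log2 difference -3.26, adjusted p = 3.85e-05). NCK2, an adaptor that links receptors to actin, had 89.9 and 80.8 TPM in KYSE30 and 18.8 and 17.2 TPM in TE-1 (2.18, adjusted p = 4.05e-05).

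The genes whose pattern over the 4 libraries was most like that of EPHB4 included CAPN2, AGO3, NDE1 and C5orf15. Likeness was the Euclidean distance between log2(TPM + 1) profiles centred on their own mean, and it was 0.00772 for CAPN2 and 0.0325 for AGO3, 0.0349 for NDE1 and 0.0354 for C5orf15. CAPN2, a calpain protease, had 680 and 704 TPM in KYSE30 and 501 and 439 TPM in TE-1. Of 9357 genes compared, 71 (0.759%) were within 0.1 of EPHB4.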

How the data were processed

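The members and gene lists were chosen with earlier results of these data known. According to the labels and methods, trimmed PAS-seq reads were aligned to GRCh38 (p14 in the submitters' processing notes) and clustered into PACs with CAGEr. Sites under 1 TPM and single-site PACs under 3 TPM were dropped. The values the authors deposited are RPM in unit (tags scaled to 1000000 per library, named TPM), on a linear scale, for each PAC and its dominant site. Starts count from 0 in the files and from 1 here.

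PACs of the 4 tables were joined by their identifier, and gene levels are sums of TPM, with an unlisted PAC taken as 0. Whole tags (TPM times the depth inferred from the step between TPM values) served for the tag counts given and for Wilson, Poisson and binomial intervals. Genes with a mean of at least 1 TPM (11215) were fitted with limma (trend) on log2(TPM + 1), with terms for line and treatment, 1 residual degree of freedom and Benjamini-Hochberg adjustment at 0.05. The fit was run on simulated counts with 200 genes changed 4-fold in each comparison. It called all 200, beside 12 other genes for l-lactate and 13 for the line. Smaller changes were not simulated, so this does not show that they would be found. Shares used genes with at least 2 PACs above 5 TPM in at least 1 library of a line, and shifts PACs above 5 TPM in both. All 9 members were named, with each other family gene that passed the filter, the 4 partners of smallest adjusted p and the genes nearest EPHB4 (5 by the rule, of which 4 are given). A gene and a sequence are not reported here. Alternatives changed the pseudocount, filter, scaling, placement, thresholds and windows. Python 3.11.15, SciPy 1.17.1 and pysam 0.24.0 were used.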

Additional observations from a re-analysis of the deposited data

How the results depend on the processing

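All 106 single-gene values kept their direction and their side of the threshold under every alternative run. For EPHB3 and EPHA4 the line comparison, with 6 of these values each, had a fixed direction, so those values are no check. The edgeR alternative was not run, since the deposited values are not counts. No paired analysis was possible because each group holds 1 library and the labels number no replicates, and the line term of the fit is its only pairing. For l-lactate, 1 gene was called higher with a pseudocount of 5, 2 with a mean of at least 5 TPM, and 43 higher and 26 lower with unlisted PACs at the lowest listed TPM, with no member among them. With a 2-fold limit 366 genes in KYSE30 and 346 in TE-1 passed, and 0 members, and with a pseudocount of 5 it was 317 and 314. PACs whose share changed numbered 1367 and 1545 at 5 points (1 and 2 of EPHB2), 45 and 74 at 20 points, 1190 and 1223 with TPM above 1 (2 of EPHA4 in KYSE30) and 162 and 229 with TPM above 10, in KYSE30 and TE-1. Shifts of any length numbered 546 in KYSE30 and 486 in TE-1, with 1 member PAC in each line, that of EPHB4. AAUAAA or AUUAAA preceded 82.4% of PACs in a window of 40 nt, AAUAAA alone 66.4% and any of the 12 hexamers 95.2%. UGUA preceded 40.8% in 60 nt, with 3 member PACs. Most of these follow from the alternative itself, a stricter or looser limit, and the cause of the added l-lactate calls was not tested. Depth limits EFNB1, EPHB3 and EPHA4, which rest on fewer than 90 tags per library.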

Other observations

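EFNA1 and EFNA3, which were higher in TE-1, lie near each other on chromosome 1. Among the 22 other genes tested within 200 kb of EFNA1, EFNA3 and EFNA4 included, 11 were called higher in TE-1 and 4 higher in KYSE30 by the same limma fit, against 34.4% and 36.8% of all genes tested, with a median log2 difference (KYSE30 minus TE-1) of -0.32 against 0.04 over all genes tested. MUC1, a membrane mucin of epithelia in this window, had the largest difference of these genes, at -4.14 (adjusted p = 1.78e-05), and PBXIP1 the largest in the other direction, at 3.06 (adjusted p = 0.00022). The window and both genes were chosen after their values were seen.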
